A study of Mus musculus with 4 samples.

Results

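The Tbx3 locus was taken as chr5:119500000-119900000 (GRCm38), a 400 kb window that holds Tbx3, a gene for a T-box transcription factor, and the long noncoding genes Tbx3os1 and Tbx3os2. Its members were all anchor pairs on chromosome 5 with at least 1 of the 2 anchors overlapping that window. An anchor is a genomic interval in which ligated ends were collected, and a pair of anchors carries a count of the read pairs that joined them. The rule found 894 of the 1513030 pairs in the table, and these used 15 anchors in the window out of 56562 anchors in all. H3K27ac HiChIP, in which contacts in fixed nuclei are ligated and then enriched with an antibody against acetylated lysine 27 of histone H3, was done in embryonic stem cells from C57BL/6J mice (B6) and from DBA/2J mice (D2). Each strain was represented by 2 lines, with 1 library from each line. The B6 lines were B6 4-1 (replicate 1) and B6 5-1 (replicate 2), and the D2 lines were D2 2-9 (replicate 1) and D2 5-5 (replicate 2). No engineered allele was named for any line, and all lines were grown in 15% serum with LIF, 1 μM of the MEK inhibitor PD0325901 and 3 μM of the GSK3 inhibitor CHIR99021. With 2 lines a strain, a difference between strains cannot be told apart from a difference between these particular lines.

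T-box factors bind DNA through a shared domain and act in patterning and cell fate. Tbx3 is mainly a repressor, and in mouse embryonic stem cells it belongs to the group of factors that sustain the naive pluripotent state downstream of LIF. Its neighbour Tbx5, which is best known for heart and forelimb development, lies in the same window, and a long stretch upstream of Tbx3 is poor in protein-coding genes. H3K27ac marks active promoters and enhancers, so a count here needs both a contact and the mark on at least 1 of the joined ends. In bulk libraries such as these, fewer cells with a contact and fewer contacts per cell cannot be told apart.

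The anchors of the locus were dense in counts for their size. Their median was 105 counts per kilobase of anchor over the 4 libraries, against 47.6 over all anchors, and their median width of 3413 bp was below the 4079 bp of all anchors. Their median GC content was 48.0% against 45.2%, and their DpnII sites were about as dense, 2.16 and 2.10 per kilobase. Widths differed greatly, and 4 of them were wider than 20 kb. The anchor chr5:119654183-119693085 (38.9 kb) held the 5 annotated start sites of Tbx3, the start site of Tbx3os2 and 1 of the Tbx3os1 start sites, so the 3 genes cannot be separated by anchor; it overlapped exons of all 3 and of the noncoding gene Gm16064. Upstream of it lay chr5:119623680-119645535 (21.9 kb), with start sites of the noncoding gene Gm16063 and of Tbx3os1, and chr5:119573521-119622149 (48.6 kb), with a further start site of Tbx3os1 and that of Gm43399. Downstream lay chr5:119700539-119726401 (25.9 kb), which overlapped no annotated gene. These 4 are called below the Tbx3 anchor, the Gm16063 anchor, the Gm43399 anchor and the downstream anchor. The other 11 anchors overlapped no start site, and 1 of them, chr5:119837698-119842289, lay inside Tbx5 with its nearest Tbx5 start 1543 bp away. The strongest partner outside the window was the anchor chr5:118420932-118468040 (47.1 kb), called the distal anchor, which overlapped no gene of the GENCODE annotation. Its nearest protein-coding start site, that of Med13l, a subunit of the kinase module of Mediator, was 92639 bp away.

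Sequences are shown for the 3 anchors that form the strongest pair and the strongest far contacts, because their edges define what was counted. Each anchor began and ended at a DpnII site, the enzyme used for the digest, and the capitals mark that site within 40 bases of the plus strand of GRCm38.p6. The first line of each pair is the start and the second the end of the anchor.
Gm43399 anchor, chr5:119573503-119573542: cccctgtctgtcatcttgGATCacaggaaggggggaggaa
Gm43399 anchor, chr5:119622131-119622170: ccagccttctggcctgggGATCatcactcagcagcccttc
Tbx3 anchor, chr5:119654165-119654204: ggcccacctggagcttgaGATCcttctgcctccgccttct
Tbx3 anchor, chr5:119693067-119693106: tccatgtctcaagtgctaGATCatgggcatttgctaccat
Distal anchor, chr5:118420914-118420953: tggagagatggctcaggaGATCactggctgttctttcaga
Distal anchor, chr5:118468022-118468061: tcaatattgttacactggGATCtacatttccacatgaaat

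Inside these anchors, RefSeq places the promoter of Tbx3os2 at the far end of the Tbx3 anchor and the promoter of the uncharacterised noncoding gene Gm30746 in the distal anchor, which GENCODE leaves without a gene. Both are shown because of the anchors they lie in. The Tbx3 anchor is part of the strongest pair, and the distal anchor is the strongest partner outside the window. Counts are held per anchor, so no contact can be placed at either start site. The table of promoters matched 2 of the 3 member genes. Each sequence runs 5′ to 3′ on the gene's own strand, from 250 bases before to 50 after the start, from RefSeq on GRCm38.p6, with CpG dinucleotides in capitals.
Tbx3os2, chr5:119691169-119691468, minus strand: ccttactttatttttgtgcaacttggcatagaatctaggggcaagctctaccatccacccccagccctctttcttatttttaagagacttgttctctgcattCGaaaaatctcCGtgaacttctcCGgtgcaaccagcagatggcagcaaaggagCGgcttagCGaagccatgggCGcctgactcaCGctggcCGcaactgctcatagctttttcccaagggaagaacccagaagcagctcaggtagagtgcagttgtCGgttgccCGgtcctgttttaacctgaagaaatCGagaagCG
Gm30746, chr5:118461799-118462098, plus strand: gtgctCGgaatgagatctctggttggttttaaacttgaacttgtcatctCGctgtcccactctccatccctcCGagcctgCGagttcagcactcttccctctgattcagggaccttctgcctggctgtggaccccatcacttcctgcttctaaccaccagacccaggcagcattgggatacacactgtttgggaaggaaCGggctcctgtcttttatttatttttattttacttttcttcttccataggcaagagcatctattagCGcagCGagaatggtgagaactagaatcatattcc

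The Tbx3os2 promoter held 12 CpG and the Gm30746 promoter 7, and the median of the 32817 promoters in the table was 7. Neither window held any of the 7 motifs searched on both strands. The motifs, with the percent of all promoters that hold each, were the T-box element AGGTGTGA (1.27%), the STAT motif TTCNNNGAA (8.29%), the TCF motif CTTTGAT (3.73%), the orphan receptor motif TCAAGGTCA (0.424%), the KLF motif GGGTGTGG (3.56%), the octamer ATTTGCAT (1.74%) and the E-box CACGTG (7.15%). All 7 are absent from most promoters, and their absence says only that these letters are not in these 2 windows.

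The 4 libraries held 2767882 to 2944258 counts in all, and the locus 2606 and 2852 counts in the B6 libraries and 3659 and 2849 in the D2 libraries, replicates 1 and 2 in that order, as everywhere below. Scaled to each library's total, the level of the locus in counts per 1000000 (CPM) was 896 and 1018 in the B6 libraries, 1322 and 968 in the D2 libraries. D2 replicate 1 was the highest library and D2 replicate 2 lay between the B6 libraries. The B6 mean was 957 ± 86.4 CPM and the D2 mean 1145 ± 251 CPM (SD, n = 2). The mark 10cyc stands in the name of the D2 replicate 1 library and 8cyc in the names of the other 3, and its meaning is not given in the sources used here. Markers of embryonic stem cells had H3K27ac contacts in every library, with start-site anchors for 9 of the 10 genes listed and summed levels of 2499, 2558, 3391 and 2474 CPM. Of 6 fibroblast feeder markers, Col1a1, Col1a2, Col3a1 and Prrx1 had no start-site anchor, and the summed level of the remaining pair ranged from 4.70 to 10.3 CPM. The stem cell marker Esrrb had no start-site anchor either, so the lack of an anchor does not show that a cell type was absent. Summed levels of 5 primitive endoderm markers ranged from 101 to 115 CPM and those of 4 trophoblast markers from 177 to 201. The 5 primed epiblast markers, all with a start-site anchor, summed to 246, 260, 241 and 247 CPM. These sums are over unlike numbers of genes and anchors of unlike width, so they cannot be compared between lists. Per kilobase of anchor, the median over genes was 90.3 counts for stem cell markers, 60.5 for trophoblast and 48.5 for primitive endoderm. It was 42.5 for primed epiblast and 28.3 for the pair of feeder markers, against 47.6 over all anchors.

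A large part of the locus counts was held by a few pairs of broad anchors. The 6 pairs among the 4 broad anchors carried 38.8% and 43.5% of the locus counts in the B6 libraries, 51.4% and 41.7% in the D2 libraries. The 84 pairs with both anchors in the window, of 105 possible, carried 54.0% and 59.6% of the locus counts in the B6 libraries and 64.8% and 58.1% in the D2 libraries. The 5 pairs with the most counts carried 43.1% of all locus counts, and each joined 2 of the 4 broad anchors. At the other end, 342 locus pairs (38.3%) had a single count over all libraries, against 38.7% of pairs in the whole table. The 74 pairs with at least 20 counts, which were the pairs tested, carried 74.8% of the locus counts, while in the whole table such pairs carried 58.1%.

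The strongest pair joined the Gm43399 anchor to the Tbx3 anchor over 75.8 kb, and it was the fifth of all pairs in the table by count. It had 312 and 465 counts in the B6 libraries and 872 and 446 in the D2 libraries, or 107, 166, 315 and 151 CPM. D2 replicate 1 stood far above the rest, and D2 replicate 2 lay between the B6 libraries. Among the 28182 pairs whose distance was within 10% of its own it ranked 1, at 116 times their mean count. Wide anchors collect more counts than narrow ones. Per square kilobase of anchor area it still lay at percentile 99.0 of the 5753 tested pairs of like distance.

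The other pairs among the 4 broad anchors formed a block around Tbx3. The Gm43399 and Gm16063 anchors, 36.8 kb apart, had 231, 262, 304 and 256 counts. The Gm16063 and Tbx3 anchors had 147, 179, 239 and 152 counts, and the Tbx3 and downstream anchors 143, 153, 221 and 137. In each of these pairs D2 replicate 1 was the highest library, and D2 replicate 2 lay between the B6 libraries or below both. The Gm43399 and downstream anchors, which flank Tbx3 at a distance of 116 kb from each other, had 138, 140, 199 and 158 counts, with both D2 libraries above both B6 libraries in CPM. The sixth pair, Gm16063 with downstream, was weaker, at 39, 41, 46 and 40 counts. Between these in total count was the pair that joined the Gm43399 anchor to the narrow anchor chr5:119561908-119565724, with 37, 41, 56 and 57 counts. It too had both D2 libraries above both B6 libraries (13.7 ± 1.36 against 19.8 ± 0.617 CPM, SD, n = 2).

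**Figure D1:**
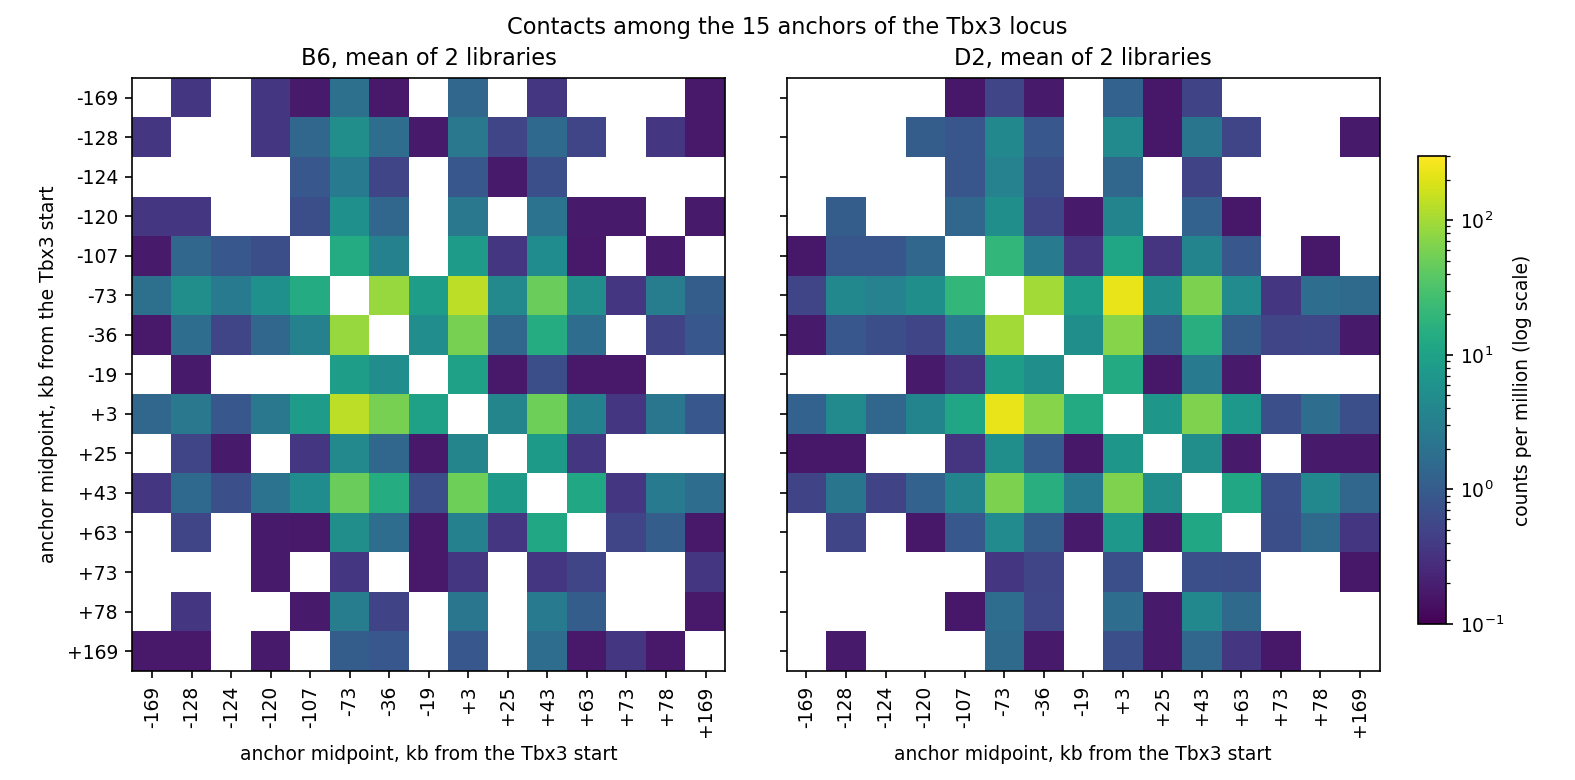
Mean CPM of each pair among the 15 anchors of the locus (colour, log scale) in B6 (left) and D2 (right), with both axes giving the anchor midpoint in kb from the Tbx3 start; the order of anchors is genomic and cells are not to scale, and white cells had no count. The anchors at -73, -36, +3 and +43 kb form the bright block in both strains, and its brightest cell is the pair at -73 and +3 kb, with 137 CPM in B6 and 233 in D2.

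Beyond the window the locus reached 127 partner anchors, 39 of them with a start site of a protein-coding gene. Counts to partners at lower coordinates, upstream of Tbx3, were 899, 866, 952 and 869, and counts to higher coordinates 299, 285, 337 and 324. The upstream side held 74.2% of all outside counts. Of all outside counts 41.5% went to upstream partners 1 to 2 Mb away, more than to upstream partners within 500 kb (22.1%) or between 500 and 1000 kb (10.6%). The counts to higher coordinates separated the strains without overlap, with D2 higher (292 ± 9.90 in B6, 331 ± 9.19 in D2, SD, n = 2; exact two-sided permutation p = 0.333, which is the smallest that 2 against 2 libraries allow). Upstream contacts of 500 to 1000 kb also did not overlap, in the opposite direction, with 136 and 126 counts in the B6 libraries, 124 and 125 in the D2 libraries. These are unscaled counts, and the nearest values, 126 and 125, all but met. As a share of the locus counts, contacts to higher coordinates overlapped between strains, at 11.5% and 9.99% in B6 and 9.21% and 11.4% in D2.

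Far contacts took a larger part of the locus than of most windows of its size. Contacts of 1 Mb or more made up 25.8% and 22.4% of the locus counts in the B6 libraries and 19.6% and 23.8% in the D2 libraries. In the whole table the same share ran from 6.83% to 7.85% over the 4 libraries, below each value of the locus. Among the 1137 windows of 400 kb with at least 5000 counts, the locus had rank 21 for this share, 22.6% against a median of 8.51% and a highest value of 37.1%. Its share of counts with both anchors inside, 59.6%, had rank 120, with a median of 42.3%.

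The distal anchor was the main far partner. It had counts with 14 of the 15 anchors of the locus, 556 in all, which was 11.5% of the outside counts of the locus and 9.23% of the 6021 counts of the distal anchor itself. With the Gm43399 anchor, 1153 kb away, it had 36 and 38 counts in B6 and 68 and 50 in D2. With the Tbx3 anchor, 1229 kb away, it had 31 and 24 counts in B6 and 64 and 40 in D2. In both pairs the 2 D2 libraries were above the 2 B6 libraries. These pairs ranked 1 among 116186 pairs of like distance, at 85.5 times their mean, and 2 among 116836, at 73.4 times. Per square kilobase of anchor area they lay at percentiles 93.2 and 94.5 of the tested pairs of like distance. With the downstream anchor the counts were 24, 18, 23 and 29, and with the Gm16063 anchor 13, 8, 15 and 16, so both D2 libraries were again above both B6 libraries in CPM, with small counts. Summed over the whole locus the distal anchor had 122 and 99 counts in B6 and 187 and 148 in D2 (38.6 ± 4.67 and 58.9 ± 12.2 CPM, SD, n = 2). The contact with the whole locus was not tested as a sum. The total of the distal anchor over all its partners had a log2 fold change (D2 over B6, as throughout) of 0.27 (SE 0.19, adjusted p = 0.437, edgeR).

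**Figure D2:**
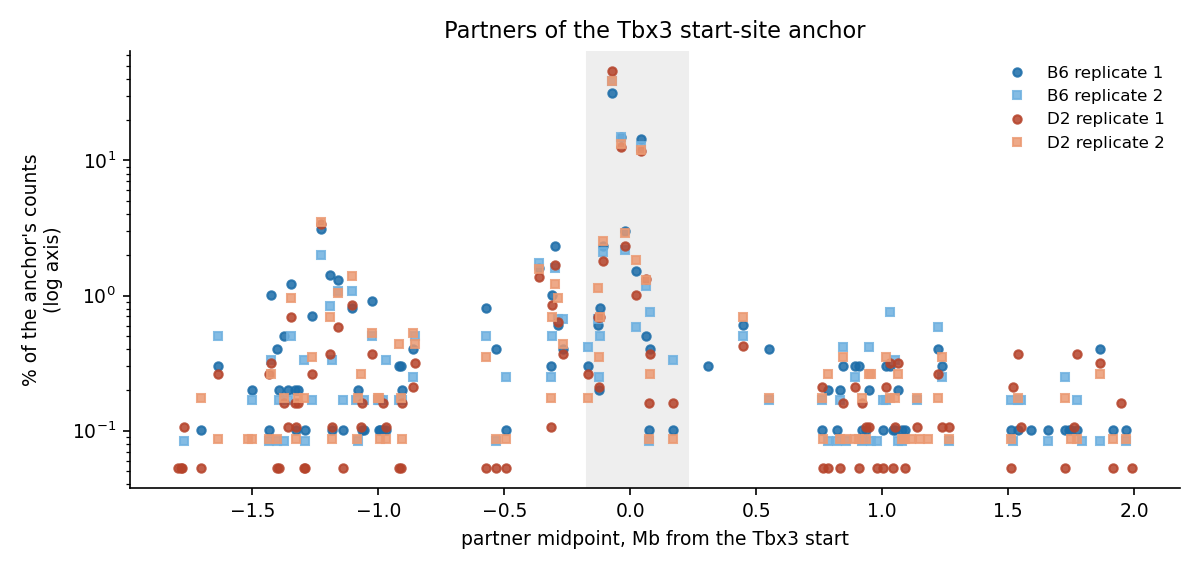
Share of the Tbx3 anchor's counts held by each partner (vertical, percent, log axis) against the distance of the partner's midpoint from the Tbx3 start (horizontal, Mb), with 1 point for each partner and library and the 400 kb window in grey. The highest points, at -72.8 kb, are the Gm43399 anchor, and the highest outside the window, at -1226 kb, are the distal anchor; points at the bottom are single counts, whose share depends on depth.

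The next partners outside the window were narrow anchors without an annotated gene, with midpoints at -298 and -360 kb from the Tbx3 start. With the locus, chr5:119369416-119376691 had 76, 77, 85 and 60 counts, and chr5:119307537-119313337 had 67, 76, 77 and 77. The strains overlapped in both. Of all counts of the first, 61.7% were with the Tbx3 locus. Near the distal anchor, chr5:118498358-118521401, with the start site of the noncoding gene Gm15754, had 53, 59, 43 and 42 counts with the locus, both B6 libraries above both D2 libraries.

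Among protein-coding start sites, the anchor of Med13l had the most counts with the locus, 29, 43, 42 and 56. Rbm19, which codes for an RNA-binding protein of ribosome biogenesis, followed at higher coordinates with 35, 26, 26 and 33. The shared anchor of Ddx54 and Rita1, a DEAD-box RNA helicase and a Notch pathway regulator, had 21, 21, 20 and 22. The strains overlapped in all 3. Tesc, which codes for the calcium-binding protein tescalcin, had 21 and 16 counts in B6 and 13 and 13 in D2, with both B6 libraries higher. Slc8b1, a mitochondrial sodium-calcium exchanger, had 15, 12, 16 and 15 counts, and Dtx1, a ubiquitin ligase of the Notch pathway, had 12, 16, 20 and 9, with overlap in both. Tbx5 had no anchor over a start site, and the anchor inside the gene had 133 counts in all.

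The strain comparison by edgeR called 0 of the 74 tested locus pairs at an adjusted p under 0.05, where 1.45% of all 108034 tested pairs were called. At an unadjusted p under 0.05 there were 8 locus pairs, 4 in each direction, or 10.8% against 11.7% of all pairs. DESeq2's Wald test called 0 of them and 0.0889% of all tested pairs, and it gave no adjusted p for 92159 pairs. The median log2 fold change was 0.08 over the locus pairs and 0.02 over all pairs, with quartiles of -0.35 and 0.39 at the locus and -0.38 and 0.38 in all. Of the 74 pairs 40 had a log2 fold change above 0, or 54.1% against 51.1% of all pairs. Both D2 libraries were above both B6 libraries in 21 pairs (28.4%, against 23.8% of all pairs), and both B6 libraries were above in 9 pairs, where the percentage over all pairs was 17.9.

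**Figure D3:**
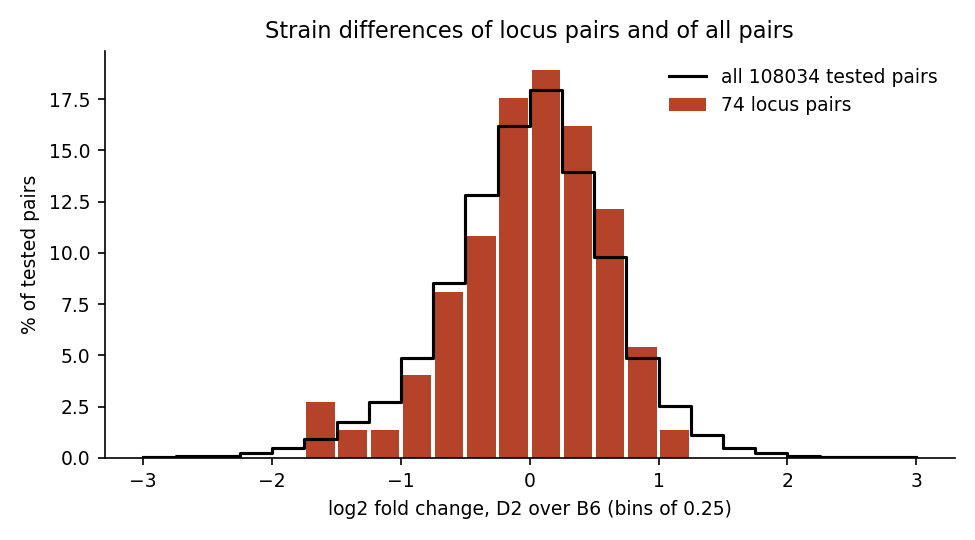
Percent of tested pairs in bins of 0.25 of the log2 fold change D2 over B6, for the 74 locus pairs (bars) and all 108034 tested pairs (line, which leaves out the few beyond 3 either way). The bars follow the line around 0 and run from -1.69 to 1.22.

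The smallest adjusted p at the locus, 0.0725, belonged to the strongest pair, whose log2 fold change was 0.70 (SE 0.22, edgeR). Its size rested on D2 replicate 1: the value was 0.09 without that library and 1.13 without D2 replicate 2 (adjusted p = 6.1e-08 in that fit). Without B6 replicate 1 it was 0.42 and without B6 replicate 2 it was 1.04. The pair of the Tbx3 anchor with the distal anchor had a log2 fold change of 0.85 (SE 0.29, adjusted p = 0.107). Here the difference was 0.43 without D2 replicate 1 and 1.18 without D2 replicate 2. Both D2 libraries lay above both B6 libraries in this pair, so the direction could not change when either D2 library was left out. The pair of the Gm43399 anchor with the distal anchor had 0.61 (SE 0.27, adjusted p = 0.314). The 3 tested pairs of greatest span were far weaker. The Tesc anchor and the downstream anchor, 1678 kb apart, had 8, 4, 4 and 4 counts. The anchor chr5:118243280-118247893, over start sites of Rnft2 and 2410131K14Rik, and the Tbx3 anchor, 1428 kb apart, had 10, 4, 6 and 3 counts, and chr5:118317911-118334179 and the downstream anchor, 1387 kb apart, had 5, 11, 8 and 5. The strains overlapped in all 3, and none of the 3 was called.

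**Figure D4:**
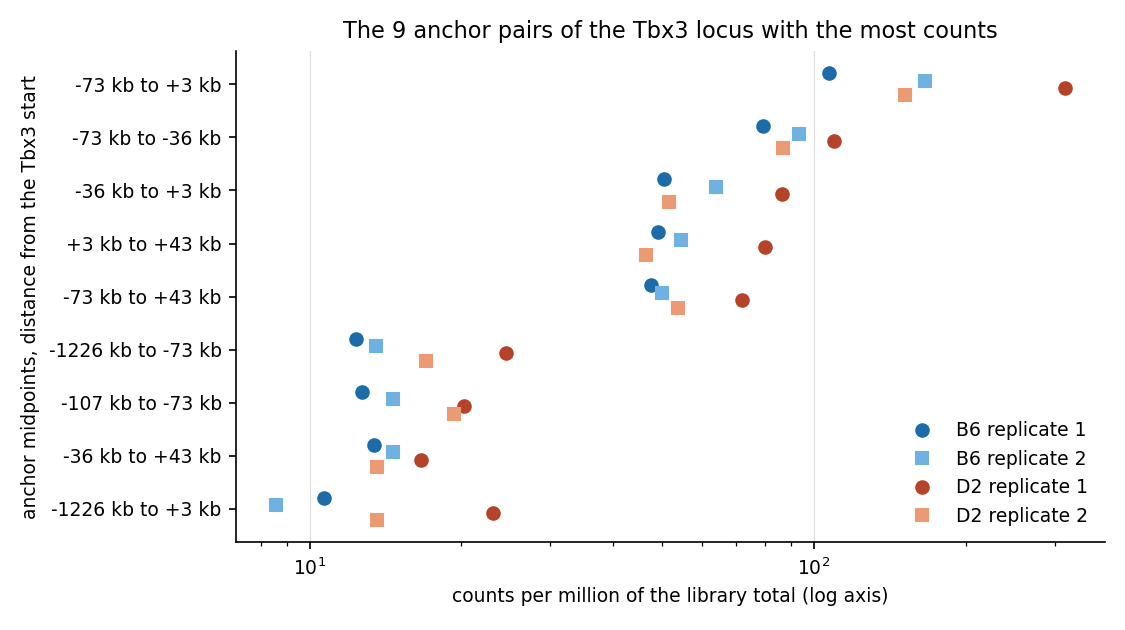
CPM (horizontal, log axis) in each of the 4 libraries for the 9 locus pairs with the most counts, named by the midpoints of their anchors in kb from the Tbx3 start; there is 1 point for each library and no error bar. D2 replicate 1 (dark red circles) is the highest library in all 9 pairs, and D2 replicate 2 lies above both B6 libraries in 4 of them, among them both pairs with the distal anchor at -1226 kb.

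Summed over all partners, the Tbx3 anchor had 993 and 1196 counts in B6 and 1888 and 1145 in D2, or 341, 427, 682 and 389 CPM. D2 replicate 1 was again apart, and D2 replicate 2 lay between the B6 libraries. The log2 fold change was 0.53 (SE 0.21, adjusted p = 0.0956, edgeR), and it was 0.00 without D2 replicate 1 and 0.93 without D2 replicate 2. The Gm43399 anchor had 1185, 1387, 1977 and 1405 counts and a log2 fold change of 0.45 (SE 0.20, adjusted p = 0.156), again with D2 replicate 2 between the B6 libraries in CPM. It was 0.062 without D2 replicate 1 and 0.76 without D2 replicate 2 (adjusted p = 3.21e-06), and it was called by library totals alone (adjusted p = 0.0238) and with chromosome 5 totals (adjusted p = 0.0183). The Gm16063 anchor had 595, 638, 715 and 619 counts (log2 0.16) and the downstream anchor 219, 232, 283 and 221 CPM (log2 0.20), with overlap in both. The anchor chr5:119561908-119565724 had 124, 133, 141 and 161 counts and both D2 libraries above both B6 libraries (log2 0.27, SE 0.16, adjusted p = 0.364). In all 0 of the 15 anchors were called by edgeR, where 9.75% of all 51820 tested anchors were called, and 2 had an unadjusted p under 0.05 (21.9% of all anchors did). The median log2 fold change over the 15 anchors was 0.16 and that over all anchors 0.01, and 13 of the 15 were above 0, as were 50.6% of all anchors. The anchors share pairs with one another, so they are not separate measurements.

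The anchor totals of 4 outside partners were called, all lower in D2, out of 127 tested partner anchors (3.15%, against 7.08% of all anchors called lower and 9.75% called in either direction). These 4 are named because there were few, after their values were seen. The anchor chr5:119096806-119101785, without an annotated gene, had a total log2 fold change of -1.10 (SE 0.24, adjusted p = 0.00115), and with the locus it had 25 and 36 counts in the B6 libraries, 11 and 12 in the D2 libraries. Its pair with the Gm43399 anchor had 8, 11, 3 and 3 counts and was not called (log2 -1.69, adjusted p = 0.203). The Tesc anchor had a total log2 fold change of -0.61 (SE 0.16, adjusted p = 0.00868). The Tesc call was lost without B6 replicate 1 (adjusted p = 0.11), B6 replicate 2 (0.066) or D2 replicate 1 (0.0711) and by DESeq2 (0.198), with the log2 fold change between -0.55 and -0.69 when 1 library was left out. The other two were chr5:118807926-118810747 (log2 -0.73, adjusted p = 0.0124), with 17, 10, 17 and 12 counts with the locus, and chr5:118700671-118702960 inside Med13l (log2 -0.72, adjusted p = 0.029), with 5, 8, 3 and 3. DESeq2 called none of these 4 totals (adjusted p = 0.109 for chr5:119096806-119101785), and both of the last 2 calls were lost without B6 replicate 1, B6 replicate 2 or D2 replicate 1.

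The whole window, tested among 5217 windows of its size, had a log2 fold change of 0.29 (SE 0.12, adjusted p = 0.0977, edgeR), while 19.3% of the windows were called. It was 0.02 without D2 replicate 1 (adjusted p = 0.936) and 0.53 without D2 replicate 2 (adjusted p = 0.0445). By total count the window ranked 342. Scaled to library totals alone, without TMM factors, the window was called (log2 0.26, adjusted p = 0.0203), and so was the Tbx3 anchor (log2 0.48, adjusted p = 0.00436); this fit called 21.3% of all windows and 11.2% of all anchors.

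**Figure D5:**
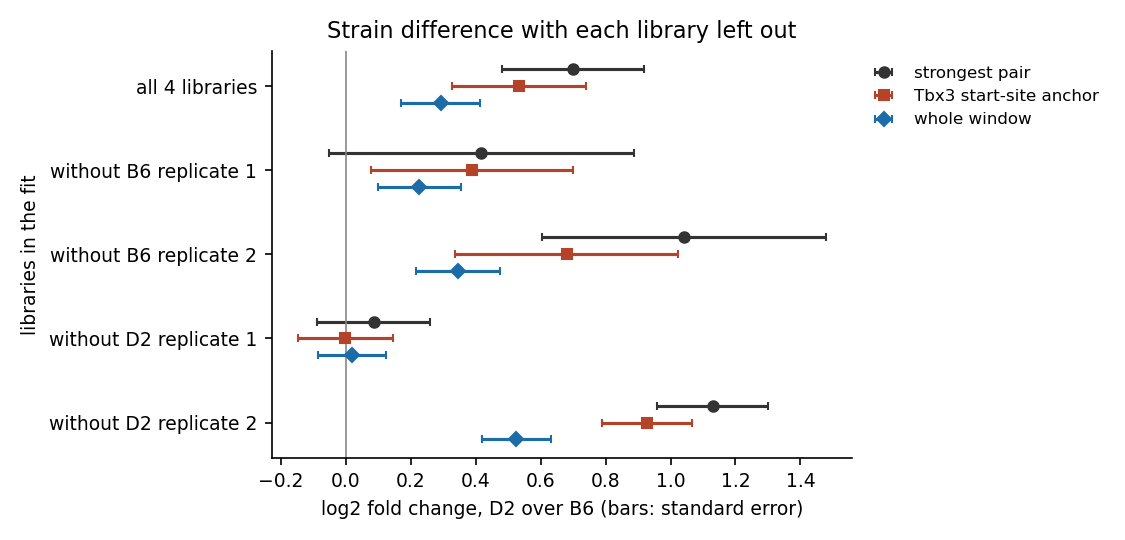
Log2 fold change D2 over B6 (horizontal, points with bars of 1 standard error) of the strongest pair, the Tbx3 anchor and the whole window, fitted with all 4 libraries and with each library left out in turn. The 3 points without D2 replicate 1 lie at 0.09, 0.00 and 0.02, and those without D2 replicate 2 at 1.13, 0.93 and 0.53.

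D2 replicate 1 was the library that stood apart most often at the locus. It was the highest library in 36 of the 74 tested pairs (48.6%, against 31.8% of all tested pairs) and in all 6 pairs among the 4 broad anchors. The same library was also raised in such pairs elsewhere. Outside the locus, pairs that join 2 anchors of 20 kb or more held 8.18% of the counts of D2 replicate 1, 6.89% in D2 replicate 2 and 6.90% and 6.66% in the B6 libraries. D2 replicate 1 was the highest library in 42.1% of the 4580 tested pairs of that kind. The library also spread its counts over the fewest pairs, 715798, where the other 3 covered 803268 to 833100. The part of these differences in the values of the locus was not tested.

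The distances of the contacts overlapped between strains. The median span of the locus counts was 116 and 109 kb in B6 and 75.8 and 116 kb in D2, a difference of -16.5 kb (exact two-sided permutation p = 1). In D2 replicate 1 the median fell on the strongest pair. Inside the window lay 56.8% ± 3.97 of the B6 counts and 61.4% ± 4.70 of the D2 counts (SD, n = 2; exact two-sided permutation p = 0.667). Of the Tbx3 anchor's counts the Gm43399 anchor took 31.4% and 38.9% in B6 and 46.2% and 39.0% in D2. The Gm16063 anchor took 14.8% and 15.0% in B6 and 12.7% and 13.3% in D2. The share of the downstream anchor was 13.6% ± 1.14 (B6) and 11.8% ± 0.184 (D2; SD, n = 2). For all 3 partners the strains did not overlap, though B6 replicate 2 and D2 replicate 2 nearly met at the Gm43399 anchor, and the shares of 1 anchor add up to the whole, so a larger share of one lowers the others. The distal anchor took 3.12% and 2.01% in B6 and 3.39% and 3.49% in D2.

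By the authors' deposited values for single libraries, taken as q-values, 188 and 202 locus pairs in B6 and 189 and 202 in D2 had a value under 0.01. These were 346 different pairs, of which 84 passed in all 4 libraries, 12 in both B6 libraries alone and 17 in both D2 libraries alone. The matching counts over the whole table were not taken. The numbers therefore describe the locus pairs and show neither a trait of the locus nor a strain difference. The 84 included each of the 8 pairs with the most counts. The median span of the 84 pairs was 974 kb, and only 11 of them had both anchors in the window. Far pairs passed on few counts: the distal anchor and chr5:119550102-119551881, 1107 kb apart, had 2 counts in B6 replicate 1 and a value of 0.000363 there.

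Among other T-box genes, 12 of the 16 listed had an anchor over a start site, and Tbx4, Tbx5, Tbx10 and Tbx19 had none. In total counts the Tbx3 anchor was the highest of the 12, with 5222 against 1680 for Tbx6 and 1090 for Tbx21. Per kilobase of anchor it had 134 counts, below the much narrower anchors of Tbx6 (211 over 7945 bp), a regulator of paraxial mesoderm, and Tbx21 (158 over 6903 bp), the T-bet gene of T cells. A gene's value is that of its whole anchor, whatever other start sites the anchor holds. Mga, a T-box protein that also dimerises with Max, had 53.6 counts per kilobase, and the median of the 12 genes was 51.5. By edgeR 1 of the 12 was called, higher in D2, and 0 were lower, where 2.67% of all anchors were called higher and 7.08% lower. This was Eomes, a T-box factor of mesendoderm and trophoblast, with 81, 85, 111 and 125 counts and no overlap between strains (log2 0.54, SE 0.18, adjusted p = 0.043). Its call was lost in each fit without 1 library (adjusted p = 0.0508 to 0.316), by library totals alone (0.0698), with chromosome 5 totals (0.093), with no filter (0.0914) and by DESeq2 (0.459), while the log2 fold change stayed between 0.49 and 0.58. Tbx6 had 409, 324, 461 and 486 counts (log2 0.41, adjusted p = 0.114). The median log2 fold change of the list was 0.14.

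Of 14 genes of the naive pluripotency network, 10 had a start-site anchor, and Esrrb, Klf2, Klf5 and Tfcp2l1 had none. Of the 10, 2 were called higher in D2 and 0 lower (2.67% and 7.08% of all anchors were), and the median log2 fold change was 0.06. The called genes were Nanog, a homeodomain factor of the naive state, with 1443, 1452, 2714 and 1732 counts (log2 0.68, SE 0.21, adjusted p = 0.0263), and Sox2, the partner of Oct4 on DNA, with 503, 596, 918 and 713 (log2 0.62, SE 0.18, adjusted p = 0.0185). In both, as at Tbx3, D2 replicate 1 was the highest library, but D2 replicate 2 also lay above both B6 libraries. Without D2 replicate 1 the Nanog value was 0.19 (adjusted p = 0.533) and the Sox2 value 0.31 (adjusted p = 0.281), and without D2 replicate 2 they were 1.05 and 0.88. Both calls were also lost without either B6 library (Nanog 0.325 and 0.365, Sox2 0.404 and 0.131 as adjusted p), with no filter (0.16 and 0.119) and by DESeq2 (0.639 and 0.0867). Pou5f1, which codes for Oct4, had 1336, 1339, 1365 and 998 counts (log2 -0.12, adjusted p = 0.776), with the lowest value in D2 replicate 2. The LIF receptor gene Lifr had 664, 685, 784 and 751 counts (log2 0.23, adjusted p = 0.473).

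The start-site anchors whose levels over the 4 libraries were most like those of the Tbx3 anchor were sought among 856 anchors over protein-coding start sites with at least 0.5 times its count. Likeness was the root mean square difference of log2 levels after each anchor was centred on its mean, and the median over the candidates was 0.333. The closest was an anchor over a cluster of histone genes, Hist1h2ai, Hist1h2bl, Hist1h2bm, Hist1h3h and Hist1h4j (0.087). It was followed by the anchors of Nanog (0.122), Ypel4 with Gm19426 (0.125), Dppa5a with Gsta2 and Ooep (0.13), and Trim28 with Chmp2a, Ube2m and Zbtb45 (0.136). In each of these 5 anchors D2 replicate 1 was the highest library, as at the Tbx3 anchor, which follows from the way they were chosen. The likeness is over 4 libraries only and is a description.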

How the data were processed

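H3K27ac HiChIP was done in 2 B6 and 2 D2 lines. The authors deposited raw read-pair counts for each pair of anchors. HiC-Pro 2.11.4, DESeq2 and the build mm10 are named in the submitters' processing notes; their settings are not given in the sources used here. The authors also deposited, for each library, a value between 0 and 1 per pair in files without a header, which was taken as the loop caller's q-value. A distance in bp between anchor midpoints is another deposited column. All 56562 anchors started and ended at GATC in GRCm38, and the table covers 19 autosomes. Genes came from GENCODE release M21.

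Pairs, anchors (sum over their pairs) and 400 kb windows with at least 20 counts over the 4 libraries were fitted by edgeR 4.0.16 (quasi-likelihood, TMM, strain only, R 4.3.3) over the whole table, with Benjamini-Hochberg adjustment and a threshold of 0.05. Levels are counts per 1000000 of the library total (2767882 to 2944258). The number of lines limits the precision. The edgeR fit was also run on counts simulated from the mean levels, with no library set apart. The outcome of that run is not reported here. The named pairs, anchors and genes follow a rule: the 8 pairs with most counts, start-site anchors and the 5 largest anchors, the 6 main partners of the Tbx3 anchor, the 3 pairs of greatest span, the 6 outside coding genes with most counts, and the 5 anchors most like it, besides 2 gene lists with up to 6 genes each. Members, lists and tests were chosen with earlier results of these data known. Counts of PCR reads are not independent molecules. Reads of both strains were placed on a reference that comes from B6.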

Additional observations from a re-analysis of the deposited data

How the results depend on the processing

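Each library was left out in turn, which left 1 library in that strain. Calls at the locus arose only in the fit without D2 replicate 2. That fit also called the most pairs and the most anchors over the whole table, so the numbers of calls show no trait of the locus. Over the 4 fits, 0 to 2 locus pairs and 0 to 3 locus anchors were called, and the locus pairs had a median log2 fold change from -0.11 (without D2 replicate 1) to 0.25 (without B6 replicate 2). The log2 fold change ran from 0.087 to 1.13 for the strongest pair, from -0.00056 to 0.93 for the Tbx3 anchor and from 0.0196 to 0.53 for the window, lowest without D2 replicate 1 and highest without D2 replicate 2.

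Scaling to library totals alone gave 2 called anchors of 15 (11.2% of all anchors and 21.3% of all windows were called), with 0.48 for the Tbx3 anchor (adjusted p = 0.00436) and 0.26 for the window (adjusted p = 0.0203). Totals of chromosome 5 alone gave 1 called pair and 2 called anchors (1.44% of all pairs, 10.8% of all anchors and 20.5% of all windows), with 0.75 for the strongest pair (adjusted p = 0.0401), 0.46 for the Tbx3 anchor (adjusted p = 0.00298) and 0.24 for the window (adjusted p = 0.0177). With no filter on counts 1 pair was called, the strongest, at 0.79, where 0.0502% of all pairs were called. Totals within distance bins called 1 pair, the Tbx3 anchor with the distal anchor, at 1.06 (adjusted p = 0.0256), where 1.36% of all pairs were called. At the authors' q-value under 0.05, 149 pairs passed in all 4 libraries, and 46 at 0.01 with at least 4 counts, where 84 passed at 0.01. The matching counts over the whole table were not taken, so these numbers show no trait of the locus.

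Replicate numbers did not pair the lines: deviations of same-numbered libraries correlated at -0.000523 over pairs and 0.0076 over anchors. With a replicate block the strongest pair had a log2 fold change of 0.65 (adjusted p = 0.115), the Tbx3 anchor 0.47 (adjusted p = 0.0105) and the window 0.27 (adjusted p = 0.0855), and 2 locus anchors were called, with 11.4% of all anchors; the other was the Gm43399 anchor (adjusted p = 0.0275).

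The sign changed under some alternative in 12 of the 41 other named pairs and anchors. The lowest and highest log2 fold changes without 1 library were -0.055 and 0.27 for the Gm43399 and Gm16063 anchors, -0.21 and 0.52 for the Gm16063 and Tbx3 anchors, -0.22 and 0.55 for the Tbx3 and downstream anchors, -0.11 and 0.17 for the Gm16063 and downstream anchors (-0.030 with at least 50 counts), and -0.84 and 0.32 and -1.29 and 0.072 for the pairs of 1387 and 1428 kb. For anchor totals they were -0.050 and 0.42 (downstream), -0.060 and 0.35 (Gm16063), -0.090 and 0.011 (Mga), -0.14 and 0.18 (Sall4, with -0.014 by library totals and -0.027 by totals of chromosome 5), -0.49 and 0.17 (Pou5f1) and -0.33 and 0.20 (Nr5a2).

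Over the whole table the calls also depended on the fit. Pairs called were 1565 in the main comparison (531 higher and 1034 lower in D2), 685 higher and 861 lower by library totals alone, 759 with no filter, 96 by DESeq2, which gave no adjusted p for 92159, and 325 to 2029 without 1 library. Anchors called were 5054, 1307 by DESeq2 and 2589 to 7660 without 1 library. Windows called were 1009, and 248 to 628 without 1 library.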
